A study of Mus musculus with 4 samples.

Results

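CC chemokines were examined in mesenchymal stem cells (MSCs) of the mouse bone marrow. They were chosen by gene symbol, as the 9 genes *Ccl2*, *Ccl5*, *Ccl7*, *Ccl8*, *Ccl9*, *Ccl11*, *Ccl19*, *Ccl25* and *Ccl27a* among the 17457 genes of the expression table. All 9 were found. RNA-sequencing covered 2 libraries of control MSCs and 2 libraries of leukemia-associated MSCs (L-MSCs). All mice were female C57BL/6J animals, aged 7 to 9 weeks at injection. The L-MSC donors had received 1000 BCR-ABL1+ pre-B acute lymphoblastic leukemia cells of a single line (PER-M60, which carries BCR-ABL1 on a retrovirus) by tail vein and were taken once they showed signs of disease. The control donors had received phosphate-buffered saline and were taken at the same time. Each library was a pool of cells from 4 to 7 mice, so that the spread between animals within a pool is not seen. The cells came from digested long bones whose marrow had been flushed out, and were sorted as CD45-, TER119-, CD31-, Sca-1+ and PDGFRα+.

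CC chemokines are small secreted proteins, named for a pair of neighboring cysteines near the amino terminus, that bind to G protein-coupled receptors and direct the movement of leukocytes. Some are induced by inflammatory cytokines in many stromal cells, while others are made at a steady rate and guide cells to particular tissues. In the bone marrow, stromal cells that make *Ccl2* are known to help monocytes leave for the blood. Heparan sulfate on cell surfaces holds the ligands in place, and atypical receptors, which bind chemokines without G protein signaling, take up or transport several of them.

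Transcripts of the sort antigens PDGFRα, Sca-1, CD45 and CD31 matched the gates. No transcript was taken for TER119. The hemoglobin gene *Hba-a1* had an FPKM of 113.44 and 63.90 in control MSCs and of 5.18 and 2.35 in L-MSCs. *Pdgfra*, encoding an antigen of the sort, had an FPKM (fragments counted relative to transcript length and sequencing depth) of 66.84 and 72.65 in control MSCs and 87.12 and 92.95 in L-MSCs, and *Ly6a*, encoding Sca-1, was between 1055.84 and 1985.06. *Ptprc*, encoding CD45, was at most 0.02 and *Pecam1*, encoding CD31, at most 0.93. Summed FPKM lay between 559601 and 588926 per library, and between 10560 and 10976 genes reached an FPKM of 1. Read numbers per library are not part of these values, and no counting interval is given. In bulk libraries, a change in the RNA per cell and a change in the share of cells that make a transcript cannot be told apart.

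*Ccl8*, *Ccl11*, *Ccl19* and *Ccl5* were higher in L-MSCs, by 2.00 to 2.41 on the log2 scale, and none of the 9 genes was called lower. *Ccl2* and *Ccl7*, the most abundant of the family, had higher means in L-MSCs, but their groups overlapped and they did not pass the test, and *Ccl25* and *Ccl27a* did not pass it either. A gene was called when its limma p, adjusted by Benjamini-Hochberg over all genes tested, did not exceed 0.05 and its log2 fold change was 1 or more in size, on log2(FPKM + 1) after scaling of the libraries. This scale understates the change of low genes. The test covered the 11056 genes that reached an FPKM of 1 in 2 or more libraries, of which 2.43% (269) were called higher and 2.65% (293) lower, against 301 and 194 without scaling. *Ccl9* did not reach this level, and *Ccl5* reached it only through the L-MSC libraries, so that its call is bound to the filter. Hence 4 of the 9 genes were called higher, or 3 without *Ccl5*. Both L-MSC libraries lay above both control libraries for these same 4 genes and for 24.8% of all genes tested, and below them for *Ccl25* and for 27.2% of all genes tested.

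**Figure D1:**
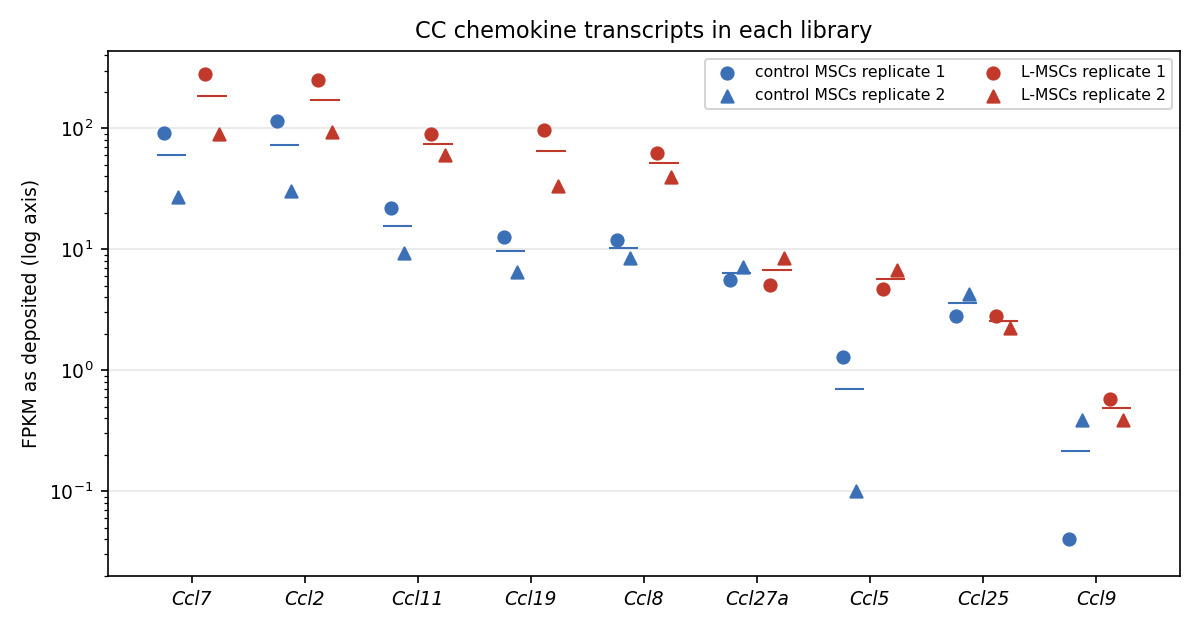
FPKM as deposited (log axis) of the 9 CC chemokines in each library, with blue marks for control MSCs, red marks for L-MSCs, circles for replicate 1, triangles for replicate 2 and short lines for the group means. The red marks of *Ccl11*, *Ccl19*, *Ccl8* and *Ccl5* lie above all blue ones, whereas for *Ccl2* and *Ccl7* replicate 1 of control MSCs lies level with replicate 2 of L-MSCs.

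The 4 genes of the monocyte chemoattractant and eotaxin branch lie in a cluster on chromosome 11 of GRCm38.p6, in the order *Ccl2* (82035577 to 82037452), *Ccl7* (82045712 to 82047525), *Ccl11* (82057832 to 82062955) and *Ccl8* (82115185 to 82116799), within 81.2 kb. *Ccl12*, a further monocyte chemoattractant of the mouse, lies between *Ccl11* and *Ccl8* (82101845 to 82103399). *Ccl5* (83525778 to 83530518) and *Ccl9* (83572917 to 83578636) are on the same chromosome. *Ccl27a* (41769467 to 41774225) and *Ccl19* (42754525 to 42756365) are on chromosome 4, and *Ccl25* (4325205 to 4360020) is on chromosome 8.

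*Ccl8*, monocyte chemoattractant protein 2, which in the mouse draws T helper 2 cells through Ccr8, had an FPKM of 11.89 and 8.44 in control MSCs and of 62.75 and 39.87 in L-MSCs. The lower L-MSC library was 3.35-fold above the higher control library. The mean rose from 10.2 ± 2.44 (SD, n = 2) to 51.3 ± 16.2 (SD, n = 2), or by 2.11 on the log2 scale (standard error 0.29, 95% interval 1.46 to 2.77, limma adjusted p = 0.00459). *Ccl11*, or eotaxin, which recruits eosinophils through Ccr3, had an FPKM of 21.74 and 9.23 in control MSCs and of 89.44 and 59.92 in L-MSCs. Again the groups did not overlap, with a 2.76-fold gap between the nearest libraries. Its log2 fold change was 2.18 (standard error 0.37, 95% interval 1.36 to 3.01, limma adjusted p = 0.0100). These calls held with any single library removed, with log2 fold changes of 1.76 to 2.45 for *Ccl8* and 1.58 to 2.77 for *Ccl11*.

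*Ccl19*, a ligand of Ccr7 that guides T cells and dendritic cells within lymphoid tissue, had an FPKM of 12.71 and 6.52 in control MSCs and of 96.52 and 33.01 in L-MSCs. On the scale of log2(FPKM + 1) it had the highest log2 fold change of the 8 genes tested, 2.41 (standard error 0.46, 95% interval 1.37 to 3.44, limma adjusted p = 0.0182). This rank depended on the pseudocount. The scarce *Ccl5* was higher with a pseudocount of 0.5 (2.49 against 2.47) and of 0.1 (3.35 against 2.52). The L-MSC libraries of *Ccl19* were 2.92-fold apart. The lower of them was still 2.60-fold above the higher control. With a library left out, its log2 fold change went from 1.62 without L-MSC replicate 1 to 3.18 without L-MSC replicate 2, and its call held each time. It ended without a variance trend (adjusted p = 0.0607) and in a robust fit (adjusted p = 0.0851). Pseudogene copies of *Ccl19* lie near it on chromosome 4, and reads shared with them could be counted for either.

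*Ccl5*, or RANTES, a chemokine of T cells, monocytes and other leukocytes, was scarce in control MSCs, with an FPKM of 1.29 and 0.10, and reached 4.68 and 6.73 in L-MSCs. The mean went from 0.695 ± 0.841 (SD, n = 2) to 5.71 ± 1.45 (SD, n = 2), or by 2.00 on the log2 scale (standard error 0.42, 95% interval 1.06 to 2.93, limma adjusted p = 0.0248). The call ended without control replicate 2 (log2 fold change of 1.44, adjusted p = 0.0955) and with a pseudocount of 0.1 (adjusted p = 0.0667). Of 10 marker genes of T and NK cells, which are known for much *Ccl5*, 6 were in the table, with sums of 1.20 and 0.26 in control MSCs and 0.42 and 0.34 in L-MSCs, and the part of such cells was not tested. All 4 calls ended when genes below the filter were kept (adjusted p between 0.273 and 0.377, with 0 of 17457 genes called by limma and 2324 at an unadjusted p of at most 0.05).

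To show the region before the start site of genes that rose, the RefSeq promoter windows (GRCm38.p6, 250 bases before to 50 bases after the start site) of *Ccl8* (chr11:82114935-82115234, plus strand) and *Ccl19* (chr4:42756316-42756615, minus strand) are printed 5′ to 3′, with any match to a searched motif in capitals. Windows were matched for 5 of the 9 genes, *Ccl8*, *Ccl9*, *Ccl19*, *Ccl25* and *Ccl27a*.
Ccl8: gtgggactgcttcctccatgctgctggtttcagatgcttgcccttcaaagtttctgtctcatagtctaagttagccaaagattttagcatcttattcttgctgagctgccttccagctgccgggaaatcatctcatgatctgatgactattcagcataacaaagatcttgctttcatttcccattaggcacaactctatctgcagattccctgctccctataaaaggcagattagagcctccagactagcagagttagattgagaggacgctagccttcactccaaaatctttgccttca
Ccl19: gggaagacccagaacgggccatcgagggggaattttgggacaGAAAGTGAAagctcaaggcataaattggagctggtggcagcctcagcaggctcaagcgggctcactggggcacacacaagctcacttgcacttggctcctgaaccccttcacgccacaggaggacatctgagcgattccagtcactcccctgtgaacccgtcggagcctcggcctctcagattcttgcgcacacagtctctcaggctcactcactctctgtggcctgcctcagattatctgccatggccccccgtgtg

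Searched on both strands were the AP-1 motif (TGANTCA), the STAT motif GAS (TTCNNNGAA), an interferon regulatory factor motif (GAAANNGAA), a glucocorticoid receptor motif (AGAACA) and the κB motif. The window of *Ccl19* held an interferon regulatory factor match, GAAAGTGAA, from base -208 relative to the start site, a motif found in 8.6% of all 32851 windows of this length. The window of *Ccl8* held no match to these letters. The other motifs were found in 7.8% (AP-1), 8.3% (GAS), 19.0% (glucocorticoid receptor) and 8.5% (κB) of all windows. The window of *Ccl9* and 1 of 3 windows of *Ccl27a* held an AP-1 and a κB match each, and those of *Ccl25* held none. A match describes the sequence and does not show binding.

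*Ccl2*, monocyte chemoattractant protein 1, and *Ccl7*, monocyte chemoattractant protein 3, both draw monocytes through Ccr2. *Ccl2* had an FPKM of 114.34 and 30.34 in control MSCs and of 249.22 and 93.10 in L-MSCs. Replicate 1 of control MSCs exceeded replicate 2 of L-MSCs, so that the groups overlapped. The log2 fold change was 1.25 (standard error 0.58, 95% interval -0.03 to 2.53, limma adjusted p = 0.250). *Ccl7* had an FPKM of 91.88 and 27.26 in control MSCs and of 280.65 and 89.73 in L-MSCs, and the groups overlapped by a narrow margin. Its log2 fold change was 1.54 (standard error 0.58, 95% interval 0.25 to 2.84, limma adjusted p = 0.164). The outcome turned on single libraries. Without control replicate 1 the log2 fold changes were 2.20 for *Ccl2* and 2.40 for *Ccl7* (adjusted p = 0.00102 and 9.19e-04), and without L-MSC replicate 2 they were 1.98 and 2.38 (adjusted p = 0.00702 and 9.41e-04), so that both would have been called. Without control replicate 2 they were 0.28 and 0.65 (adjusted p = 0.794 and 0.535), and without L-MSC replicate 1 they were 0.52 and 0.70 (adjusted p = 0.707 and 0.535).

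**Figure D2:**
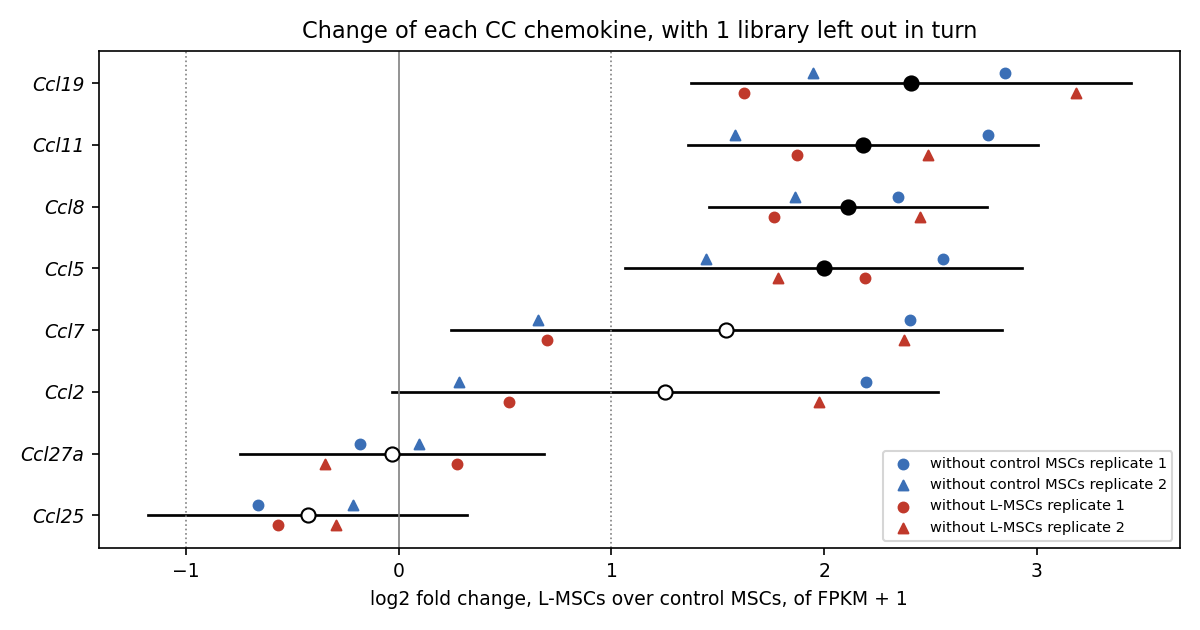
Log2 fold change of L-MSCs over control MSCs for the 8 CC chemokines tested, with black lines for the 95% interval, filled circles for called genes and open circles for the others. Small colored marks give the value with 1 library left out, and dotted lines mark a log2 fold change of 1 in either direction. The small marks stay above 1 for the 4 called genes and run from 0.28 to 2.20 for *Ccl2*.

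*Ccl2* and *Ccl7* kept similar levels to each other in every library. The ratio of *Ccl7* to *Ccl2* was 0.804 and 0.899 in control MSCs and 1.13 and 0.964 in L-MSCs, although the level of *Ccl2* itself ranged from 30.34 to 249.22. Replicate 1 exceeded replicate 2 by 1.90 (*Ccl2*) and 1.74 (*Ccl7*) on the log2 scale in control MSCs and by 1.45 and 1.68 in L-MSCs. *Ccl11*, *Ccl19* and *Ccl8* were higher in replicate 1 of both groups as well, by 0.47 to 1.56. Immediate-early genes, which are induced by many stimuli and by the dissociation of tissue, had the same tilt. Of 20 tested, 19 were higher in replicate 1 of control MSCs and 17 in replicate 1 of L-MSCs, with median differences of 0.95 and 0.63 against 0.01 and 0.01 over all genes tested. Their summed FPKM was 5393 and 2353 in control MSCs and 11047 and 7206 in L-MSCs. The part of this tilt in the chemokine levels was not tested.

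**Figure D3:**
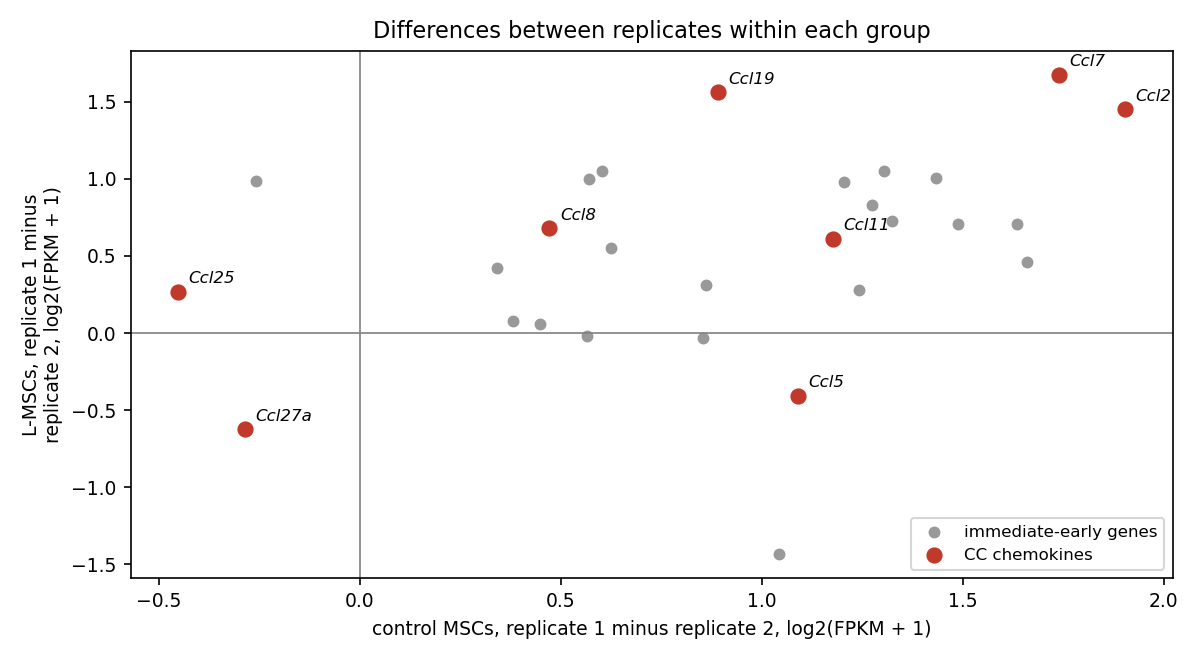
Difference between replicate 1 and replicate 2 on the scale of log2(FPKM + 1), in control MSCs (horizontal axis) and in L-MSCs (vertical axis), for the 8 CC chemokines tested (red) and 20 immediate-early genes (gray). *Ccl2* and *Ccl7* lie at the upper right, at 1.90 and 1.45 and at 1.74 and 1.68, while *Ccl27a* is lower in replicate 1 of both groups and *Ccl25* and *Ccl5* are each lower in replicate 1 of a single group.

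Markers of other cells were also considered, since monocytes and macrophages make several of these ligands. L-MSC replicate 1, the library with the most *Ccl2*, *Ccl7*, *Ccl8*, *Ccl11* and *Ccl19*, had the highest sum over 11 macrophage markers, 41.3 against 34.4 and 34.1 in control MSCs and 22.6 in L-MSC replicate 2. *Cd68* (12.56) and *Fcer1g* (8.27) were highest there, and the defining *Adgre1* and *Csf1r* were at most 0.01 in that library. The most abundant markers of the list went the other way, with *Lyz2* at 11.81 and 18.10 in control MSCs against 7.87 and 5.72 in L-MSCs (limma adjusted p = 0.0655) and *Cd14* at 16.73 and 10.79 against 10.89 and 10.56. None of the 4 macrophage markers tested was called. For 5 hematopoietic markers the sum was 4.91 in L-MSC replicate 1 and 1.04 to 1.47 in the others, and nearly all of it was *Coro1a*. For the 7 B lineage markers measured it was 6.54 against 1.90 to 2.07. Their part in the chemokine levels was not tested. Of the 9 MSC markers, *Cxcl12* and *Lepr* were called higher in L-MSCs and *Thy1* and *Cd34* lower. Of 6 erythroid markers, the 4 hemoglobin genes tested were called lower, and the sum was 239 and 150 in control MSCs against 10.1 and 6.26 in L-MSCs, with *Alas2* at most 0.73 in all libraries. The part of the MSC and erythroid markers in the chemokine levels was not tested. Sums of the endothelial (2.79 to 5.04), granulocyte (5.13 to 12.0) and osteoblast markers (480 to 1151) overlapped between the groups. The osteoblast sum was mostly *Ibsp*, whereas *Bglap*, encoding osteocalcin, was at 114.41 and 65.00 in control MSCs against 8.53 and 43.72 in L-MSCs (limma adjusted p = 0.0549).

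*Ccl25*, a ligand of Ccr9 made in the thymus and the small intestine, and *Ccl27a*, a ligand of Ccr10 known from keratinocytes of the skin, are usually made at a steady rate. *Ccl25* had an FPKM of 2.83 and 4.29 in control MSCs and of 2.83 and 2.24 in L-MSCs, with a tie between the first replicates that the scaling resolved. Its log2 fold change was -0.43 (standard error 0.34, 95% interval -1.18 to 0.32, limma adjusted p = 0.514). *Ccl27a* had an FPKM of 5.56 and 7.10 in control MSCs and of 5.02 and 8.53 in L-MSCs, and the control libraries lay within the L-MSC range. Its log2 fold change was -0.03 (standard error 0.32, 95% interval -0.75 to 0.68, limma adjusted p = 0.964), and its sign turned with the scaling. The gene overlaps *Il11ra1* by 7 bases and has a near copy, *Ccl27b* (0.14, 1.40, 0.06 and 2.26 in the same order of libraries), with which reads may be shared. *Ccl9*, which in the mouse acts on myeloid cells and osteoclast precursors through Ccr1, had an FPKM of 0.04 and 0.39 in control MSCs and of 0.58 and 0.39 in L-MSCs, and was not tested.

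In both groups *Ccl2* and *Ccl7* led the order of levels, which FPKM allow to be compared between genes, and they did not differ beyond their spread. In control MSCs they were followed by *Ccl11*, *Ccl8*, *Ccl19* and *Ccl27a*, with means from 15.5 down to 6.33 and overlapping ranges between neighbors. In L-MSCs *Ccl11*, *Ccl19* and *Ccl8*, with means of 74.7, 64.8 and 51.3, again overlapped each other but stood clear of *Ccl27a*, whose highest library was at 8.53. *Ccl5* passed *Ccl25* in the order, with a mean of 5.71 against 2.54 and no overlap, whereas in control MSCs it was below it.

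The 9 genes together summed to an FPKM of 262 and 93.7 in control MSCs and of 792 and 334 in L-MSCs. Both L-MSC sums were higher, but control replicate 1 was nearer to L-MSC replicate 2 than to its own replicate. *Ccl2* and *Ccl7* made up 78.6% and 61.5% of the sum in control MSCs and 66.9% and 54.8% in L-MSCs. *Ccl8*, *Ccl11* and *Ccl19* made up 17.7% and 25.8% in control MSCs and 31.4% and 39.8% in L-MSCs. These 3 genes were grouped as called genes, so that their larger share in L-MSCs follows from that choice. Relative to *Ccl2* in the same library, *Ccl19* went from 0.111 and 0.215 to 0.387 and 0.355 and *Ccl11* from 0.190 and 0.304 to 0.359 and 0.644, whereas *Ccl8* overlapped, with 0.104 and 0.278 against 0.252 and 0.428. The ratios set called genes over a gene that was not called, so that a rise in L-MSCs follows from that choice too. These shares and ratios were not tested, and with 2 samples against 2 an exact two-sided permutation test cannot go below a p of 0.333.

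**Figure D4:**
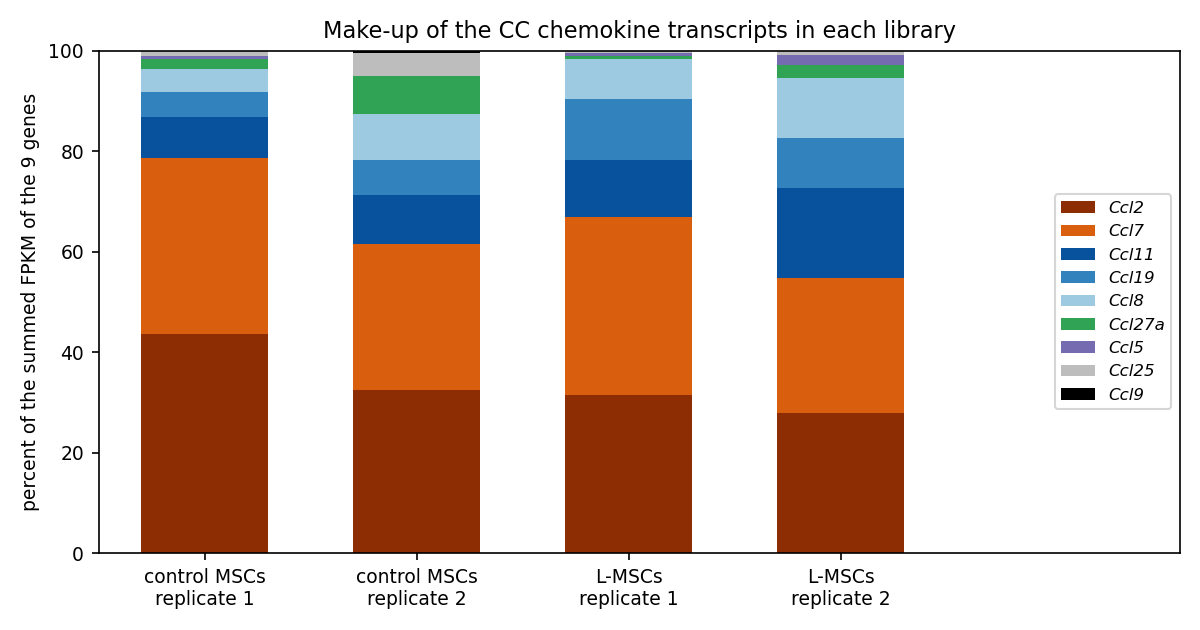
Percent of the summed FPKM of the 9 CC chemokines that each gene held in each library. The blue segments (*Ccl11*, *Ccl19* and *Ccl8*) took up 17.7% and 25.8% in control MSCs and 31.4% and 39.8% in L-MSCs, and *Ccl2* and *Ccl7* (brown and orange) the largest part of every bar.

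Most other CC ligands were at or near zero. Of 15 further ligand genes listed, 12 were in the table and 10 of these stayed below an FPKM of 1 in every library, with *Ccl22* and *Ccl24* listed at 0 throughout. *Ccl27b* was the single one tested (log2 fold change of 0.13, limma adjusted p = 0.924). *Ccl20*, a ligand of Ccr6, had an FPKM of 0.20 and 0 in control MSCs and of 3.73 and 0.35 in L-MSCs, and *Ccl12* had 0.12 and 0.10 against 0.98 and 0.13. Both were highest in L-MSC replicate 1 and neither passed the filter. Signaling receptors of CC chemokines were hardly detected in these cells. Of 11 listed, 7 were in the table, none exceeded an FPKM of 0.34, and *Ccr4* and *Ccr7* were listed at 0 in all libraries.

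Atypical receptors, by contrast, were measured in every library and were lower in L-MSCs where they passed the test. Of 5 tested, 2 fell and 0 rose, against 2.65% called lower and 2.43% called higher over all genes tested. The list was chosen with earlier results of these data known, so that its counts and median are not independent of them. The median over the 5 was -0.89 on the log2 scale, against -0.01 over all genes tested. *Ackr3*, which binds Cxcl12 rather than CC chemokines, had an FPKM of 376.07 and 330.51 in control MSCs and of 154.50 and 180.34 in L-MSCs. It fell by 1.18 on the log2 scale (standard error 0.21, limma adjusted p = 0.0117), and its call held with each library left out but ended without a variance trend (adjusted p = 0.0618). *Ackr1*, which binds inflammatory CC and CXC chemokines, had an FPKM of 7.97 and 6.12 against 2.83 and 2.30, a log2 fold change of -1.25 (standard error 0.31, limma adjusted p = 0.0478). Its call ended with any library left out (adjusted p from 0.0531 to 0.203) and without scaling (0.0638). *Ackr2*, a scavenger of inflammatory CC chemokines including Ccl2, Ccl5, Ccl7, Ccl8 and Ccl11, had an FPKM of 43.06 and 48.77 against 27.21 and 24.86. The groups did not overlap, and its log2 fold change of -0.89 (standard error 0.22, limma adjusted p = 0.0433) fell short of the fold threshold. *Ackr4*, a scavenger of Ccl19 and Ccl25, overlapped, with 21.71 and 31.57 against 10.06 and 24.25 (log2 fold change of -0.80, limma adjusted p = 0.243, from -0.23 without L-MSC replicate 1 to -1.37 without L-MSC replicate 2). *Ccrl2*, which binds chemerin, had a log2 fold change of -0.24 (limma adjusted p = 0.744).

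**Figure D5:**
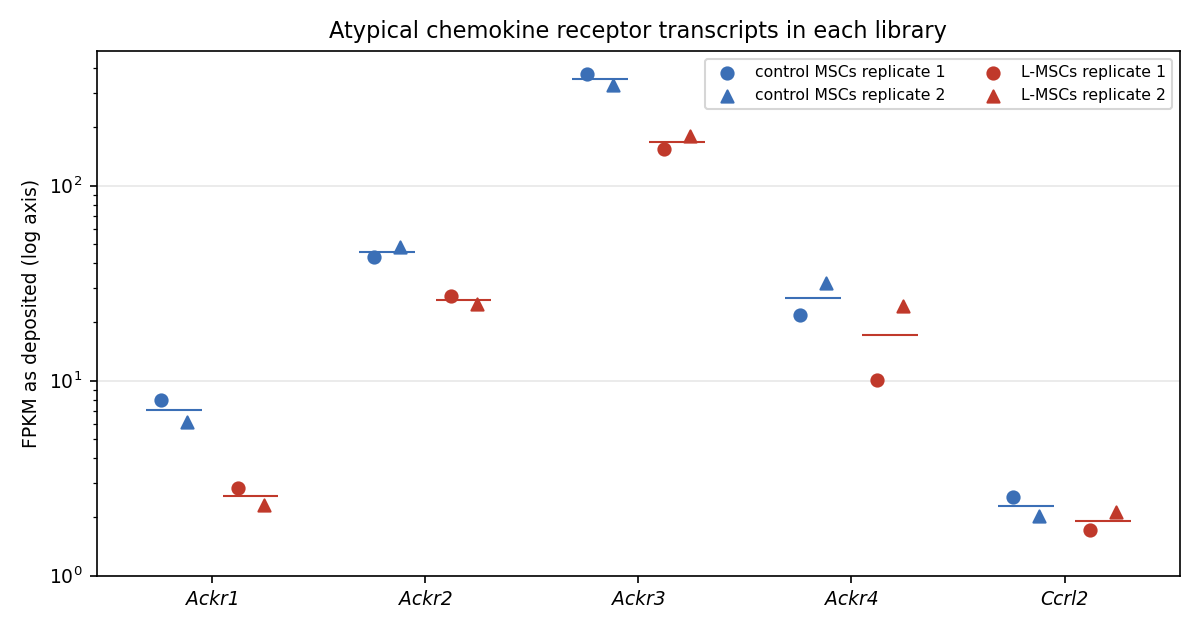
FPKM as deposited (log axis) of the atypical chemokine receptor genes in each library, with blue marks for control MSCs, red marks for L-MSCs, circles for replicate 1, triangles for replicate 2 and short lines for the group means. Red marks lie below both blue marks for *Ackr1*, *Ackr2* and *Ackr3*, and the groups overlap for *Ackr4* and *Ccrl2*.

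Genes that hold or cut chemokines were not called. None of 13 genes of heparan sulfate proteoglycans and their synthesis passed the test in either direction, with a median log2 fold change of -0.17. *Sdc4* and *Sdc2*, encoding the abundant syndecans, had values of -0.36 and -0.27. The lowest values were those of *Sdc1* (-0.83, limma adjusted p = 0.0556) and *Gpc1* (-0.81, limma adjusted p = 0.115). The highest was that of *Gpc6* (0.61, limma adjusted p = 0.270). Of 6 proteases known to cut chemokines, 0 were called, against 1 in a robust fit and up to 3 without control replicate 1. The collagenase gene *Mmp13* had a log2 fold change of 0.53 and turned on single libraries (1.27, adjusted p = 0.00692, without control replicate 1), and the gelatinase gene *Mmp2* had one of 0.13. *Mmp9*, encoding another gelatinase, was at 1.00 and 0 in control MSCs and at 6.09 and 2.72 in L-MSCs (log2 fold change of 1.80, limma adjusted p = 0.0507), and the stromelysin gene *Mmp3* had a log2 fold change of 1.02 (limma adjusted p = 0.153). Like *Ccl5*, *Mmp9* needed the L-MSC libraries to pass the filter, so that its test and its lack of overlap are bound to the filter. The L-MSC libraries lay above both control libraries for *Mmp9* and *Mmp3*, and for 24.8% of all genes tested. *Dpp4* went the other way, at 20.71 and 28.66 in control MSCs against 12.13 and 14.75 in L-MSCs. Its log2 fold change was -0.92 (limma adjusted p = 0.0713), and 27.2% of all genes tested lay below both control libraries as it did.

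The cytokines that induce CC chemokines were mostly not seen in these cells. A gene of their receptors and several transcription factor and feedback genes were called higher in L-MSCs. The part of these genes in the chemokine levels was not tested. Of 10 inducing cytokines listed, 6 were in the table, and *Tnf*, *Il1a*, *Il1b*, *Lta* and *Ltb* were at most 1.05. *Il6* had an FPKM of 10.77 and 2.55 in control MSCs and of 46.34 and 16.05 in L-MSCs, with no overlap. The order of libraries was that of *Ccl8*, *Ccl11* and *Ccl19*. Its log2 fold change was 2.04 (standard error 0.58, limma adjusted p = 0.0735), and ran from 1.15 to 2.92 with a library left out. With all libraries, *Il6* passed at a minimum FPKM of 5 (limma adjusted p = 0.0483) and with the replicate number as a block, but in no other fit. The paper reports *Il6* as significantly increased in L-MSCs by its own test. Among 13 receptors of such cytokines 1 was called higher, against 2.43% of all genes tested. This was *Osmr*, the receptor subunit for oncostatin M, with an FPKM of 19.37 and 20.51 against 61.82 and 43.38. Its log2 fold change was 1.24 (limma adjusted p = 0.0209), and 0.96 (0.105) without L-MSC replicate 1. *Ifngr1*, a subunit of the interferon-gamma receptor, had a log2 fold change of 0.98, just under the fold threshold (limma adjusted p = 0.0268), and *Tnfrsf1a*, a TNF receptor, had one of 0.14 (0.785).

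Of 20 transcription factors and feedback genes tested, 7 rose and 0 fell. Over all genes tested, 2.43% were called higher and 2.65% lower. The median over the 20 was 0.91 on the log2 scale, against -0.01 over all genes tested. Among the 20, the genes of NF-κB subunits did not pass. Their log2 fold changes were -0.0037 (*Nfkb1*), 0.07 (*Rel*), 0.19 (*Rela*), 0.55 (*Nfkb2*) and 0.61 (*Relb*). The transcription factor gene *Cebpd* went from 2.04 and 3.26 to 14.69 and 21.36 (log2 fold change of 2.29, limma adjusted p = 0.00447), and *Tsc22d3*, a target of the glucocorticoid receptor, from 290.97 and 420.60 to 912.83 and 1241.99 (1.50, limma adjusted p = 0.00968). Both calls held with each library left out. *Irf1*, an interferon regulatory factor, rose by 1.65 and *Zfp36*, whose protein speeds the decay of cytokine mRNAs, by 1.70. Without control replicate 2 the calls of *Irf1* (limma adjusted p = 0.0630) and *Zfp36* (0.112) ended, and without L-MSC replicate 1 that of *Zfp36* (0.0531). *Nfkbia*, the NF-κB inhibitor that NF-κB itself induces, and *Stat3* did not pass, at 0.90 and 0.47 on the log2 scale (limma adjusted p = 0.229 and 0.235). With a library left out, 2 of these genes rose without control replicate 2 and 3 without L-MSC replicate 1. Of the 20 immediate-early genes, 5 rose and 0 fell, with a median of 1.06, and with a library left out the genes that rose numbered between 0, without control replicate 2, and 13, without control replicate 1. These gene lists share members, as with *Zfp36*, and were chosen with earlier results of these data known.

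The genes whose values over the 4 libraries lay nearest to each called chemokine were taken from 7110 or 7111 other genes with a mean FPKM of at least 5, by the Euclidean distance between centered log2 values. For *Ccl8* they were *Xdh* (distance 0.178), *Pim3* (0.225) and *Dapk1* (0.264). For *Ccl11* they were *Nr1d1* (0.212), *Lpl* (0.274) and *Irs2* (0.351), for *Ccl19* *Apod* (0.276), *Serpina3g* (0.325) and *Chchd10* (0.391), and for *Ccl5* *Rrad* (0.365), *Gm12407* (0.401) and *Rasd1* (0.424). None of the chemokines was among the nearest genes of another, but *Ccl5*, *Ccl9* and *Ccl25*, with a mean FPKM below 5, were not candidates. A set of 4 libraries gives such likeness little weight.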

How the data were processed

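The authors sequenced 2 libraries of control MSCs and 2 of L-MSCs, prepared from low-input RNA with a SMART-Seq kit. Per the labels and the study's methods, the authors filtered reads with SOAPnuke, aligned them with HISAT2 2.0.4 and Bowtie2 2.2.5 to GRCm38.p6 and calculated FPKM with RSEM 1.2.8. The deposited FPKM have 2 decimals and are not scaled between libraries. The authors' log2 ratios of the groups, deposited beside them, were not used. Here libraries were scaled by median of ratios (factors 0.957 to 1.05), genes that reached an FPKM of 1 in 2 or more samples were kept, and log2(FPKM + 1) was compared with limma 3.58.1 in R 4.3.3 (eBayes with trend, no covariate), with Benjamini-Hochberg adjustment over the 11056 genes. The fit was run on simulated data with independent noise for each gene and library. These held no difference shared by replicates, so that they cannot show how the fit handles the tilt between replicates. Residual degrees of freedom numbered 2, so that p-values rest on limma's pooled spread. Positions and names, found for all 9 genes, and promoters, found for 5, are RefSeq GRCm38.p6.

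The members and gene lists were chosen with earlier results of these data known. Named genes were all members, up to 4 called genes of each list by fold change and up to 2 others by level, the sort antigens and the 3 nearest genes of each called member. *Fcer1g*, *Cd68*, *Coro1a*, *Adgre1*, *Csf1r*, *Ccrl2*, *Mmp3*, *Mmp9* and the cytokines below an FPKM of 2 were named after their values were seen. So were *Dpp4*, *Sdc1*, *Gpc1*, *Gpc6* and the genes of the NF-κB subunits. Alternatives left out each library, the scaling, the filter, the variance trend or the fold threshold, or used TPM, quantile normalization, a pseudocount of 0.1 or 0.5, a minimum FPKM of 5, robust variances or a block for the replicate number. Each library is a pool of mice. The p-values rest on the spread between these pools, combined for each gene with that of other genes of similar level, and not on the spread between mice.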

Additional observations from a re-analysis of the deposited data

How the results depend on the processing

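Of the CC chemokines, 4 were called higher, and 0 without the filter on low values. In all other alternatives the count was 3 to 6, also with a library left out, and 0 were called lower in any. *Ccl27a* changed sign without scaling (0.0553) and with TPM (0.0196), and ranged from -0.35 to 0.27 with a library left out. With the alternatives applied to other named genes, a choice made after the data were seen, *Ccl27b* had -0.0431 with a pseudocount of 0.1, and with a library left out *Ccl27b* ranged from -0.43 to 0.91, *Sdc4* from -0.75 to 0.0116, *Tnfrsf1a* from -0.14 to 0.40 and *Mmp13* from -0.22 to 1.27. Without a variance trend 2 regulators and 0 immediate-early genes, atypical receptors or cytokine receptors were called. Over all genes, 269 were higher and 293 lower, against 0 and 0 without the filter, 436 and 546 without L-MSC replicate 2, 241 and 182 with TPM, 301 and 194 unscaled, and 148 and 128 with a constant prior variance. Cytokine receptors called numbered 0 to 3. Leaving out a library leaves 1 sample in a group, which is then assumed to vary like the other group.

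With the replicate number as a block, 6 chemokines were called higher, *Ccl2* (adjusted p = 4.41e-06 from limma) and *Ccl7* (5.21e-09) in addition, and over all genes 509 were higher and 438 lower against 269 and 293. The same-numbered samples share only a number in the labels. Their deviations from the group means had a correlation of 0.101 across genes over 2 pairs, and a single residual degree of freedom was left, so that the block was not used.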
